A study of Homo sapiens with 6 samples.

Results

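The E2F genes, E2F1 to E2F8, were followed in K562 cells in which the splicing factor gene ZRSR2 was knocked down. Every listed intron that lies inside one of the 8 genes on its strand was taken, which gave 72 introns of the 241593 in each table, and 71 of them had a mean of at least 20 reads per library and were tested. E2F1 and E2F2 had 6 listed introns each, E2F3 had 8, E2F4 had 9, E2F5 had 7, E2F6 had 11, E2F7 had 13 and E2F8 had 12. K562 is a human line from a chronic myeloid leukaemia. The groups were cells transduced with a first shRNA against ZRSR2 (sh1), a second shRNA against it (sh2), or a control shRNA (Con_sh), with 2 libraries of polyA-selected RNA each. The replicate number is the experiment number of the titles, and values are given with replicate 1 before replicate 2. Whether replicates were separate cultures is not stated, so p-values measure only the spread between these samples.

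E2F proteins are transcription factors that set the expression of genes for DNA replication and the cell cycle. E2F1, E2F2 and E2F3 are the activators, which bind DNA with a DP partner and are held in check by the retinoblastoma protein RB1. E2F4 and E2F5 act mainly as repressors with the pocket proteins RBL1 and RBL2, E2F6 represses through a Polycomb-type complex without pocket proteins, and E2F7 and E2F8 are atypical repressors that bind DNA without a DP partner. ZRSR2 is a protein of the minor spliceosome, which removes the rare U12-type introns, and E2F genes are among those described as carrying such an intron. The type of an intron was not read from sequence here.

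The activator genes are themselves known E2F targets, so the 250 bases before each RefSeq start (GRCh38.p14) were searched for the E2F motif, spelled as TTTCCCGC, TTTCGCGC, TTTGCCGC or TTTGGCGC on either strand. Of all 35116 promoters in the table, 2.79% held a match. E2F1 held 2 matches, at 33 bases before the start on the opposite strand and at 20 bases on the same strand. E2F2 held 1 at 42 bases on the same strand, and the upstream E2F3 promoter, E2F3a, held 1 at 53 bases on the opposite strand. No match to these letters lay in this window of E2F3b (the downstream E2F3 promoter), E2F4, E2F6 or E2F7. The 4 activator promoters are shown because both E2F3 starts are counted separately in what follows. They lie at chr20:33686386-33686635 (minus strand), chr1:23531234-23531483 (minus strand), chr6:20401629-20401878 (plus strand) and chr6:20403364-20403613 (plus strand), in that order, and capitals mark the motif.
E2F1: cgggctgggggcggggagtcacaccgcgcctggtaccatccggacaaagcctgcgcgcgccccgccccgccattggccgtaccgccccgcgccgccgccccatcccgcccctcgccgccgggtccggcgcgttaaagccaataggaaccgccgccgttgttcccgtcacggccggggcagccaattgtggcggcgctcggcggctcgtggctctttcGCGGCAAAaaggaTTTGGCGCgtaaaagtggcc
E2F2: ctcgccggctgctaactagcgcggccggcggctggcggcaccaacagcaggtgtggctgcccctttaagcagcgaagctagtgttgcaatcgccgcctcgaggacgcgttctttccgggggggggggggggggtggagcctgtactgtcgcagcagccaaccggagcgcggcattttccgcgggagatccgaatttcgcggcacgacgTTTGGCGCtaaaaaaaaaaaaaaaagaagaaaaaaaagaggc
E2F3a: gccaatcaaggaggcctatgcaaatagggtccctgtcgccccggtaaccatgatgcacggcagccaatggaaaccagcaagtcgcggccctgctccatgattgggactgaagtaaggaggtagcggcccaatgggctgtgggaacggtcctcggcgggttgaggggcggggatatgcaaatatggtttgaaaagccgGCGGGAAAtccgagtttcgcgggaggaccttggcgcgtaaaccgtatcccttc
E2F3b: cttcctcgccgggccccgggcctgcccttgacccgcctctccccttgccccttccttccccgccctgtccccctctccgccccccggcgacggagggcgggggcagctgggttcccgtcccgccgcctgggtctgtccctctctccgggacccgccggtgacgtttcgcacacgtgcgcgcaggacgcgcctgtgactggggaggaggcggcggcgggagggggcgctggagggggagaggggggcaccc

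The libraries held 82986327 to 101120454 spliced reads and 4387311 to 5199693 reads at intron boundaries. ZRSR2 itself had 10.7 and 10.8 CPM (spliced reads summed per gene, per 1000000 reads) in sh1 libraries and 10.3 and 12.8 CPM in sh2 libraries, against 28.0 and 23.6 CPM in control libraries, a log2 fold change of -1.21 ± 0.17 (SE). Its edgeR adjusted p was 0.572 and its DESeq2 adjusted p 1.77e-06. Erythroid markers, which K562 cells are known to express, differed between the libraries: the 9 genes summed to 11108 and 5528 CPM in sh1 libraries and 17440 and 8566 CPM in sh2 libraries, against 4371 and 5743 CPM in control libraries, with sh1 replicate 2 below control replicate 2, and 8 of 9 had a positive log2 fold change. Most of each sum came from the globin genes HBE1, HBG1 and HBG2. TFRC had 898 to 1249 CPM in knockdown libraries, against 1189 and 1262 CPM in control libraries. The part of the erythroid markers in the E2F values was not tested. Myeloid markers summed to 0.635 to 1.78 CPM over the knockdown and 0.933 to 1.35 CPM over the control libraries. B cell markers summed to 4.77 to 9.04 CPM in knockdown libraries and 8.11 to 8.31 CPM in control libraries, and T cell markers to 21.9 to 32.0 CPM in knockdown and 34.7 to 79.1 CPM in control libraries. Epithelial markers summed to 85.4 to 120.5 CPM in knockdown libraries and 111 to 125.0 CPM in control libraries, nearly all of it EPCAM, with CDH1 below 0.3 CPM in each. Fibroblast markers summed to 5.55 to 20.9 CPM in knockdown libraries and 15.8 to 17.7 CPM in control libraries.

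In the ZRSR2 knockdown libraries 4 E2F introns were called more retained than in control libraries, a pair of neighbouring introns in E2F3 and a pair in E2F6. None was called less retained. Retention is the authors' percent of boundary reads over boundary reads plus 2 times the spliced reads. With edgeR's quasi-likelihood test on boundary against spliced reads and an adjusted p under 0.05, 4 of 71 E2F introns (5.63%) were called higher with both shRNAs together, where 0.33% of all 134078 tested introns were. Called lower were 0 of 71, against 0.0209% of all introns. An unadjusted edgeR p under 0.05 was found in 16 of the 71, against 5951 of all 134078 tested introns. With sh1 alone 3 E2F introns were called higher (4.23%, against 0.292% of all introns), and with sh2 alone 4 (5.63%, against 0.267%). With the experiment number as a block, 6 were called with both shRNAs, E2F1 intron 4 and E2F4 intron 3 being added, and 5 with sh1, E2F4 intron 3 and E2F6 intron 10 being added. The share of all introns called with this block is not given here, so the added calls cannot be told from a general rise in calls. Between sh1 and sh2 no E2F intron was called by edgeR, against 0.0343% of all introns. Of the 71, 2 had an unadjusted edgeR p under 0.05, against 5131 of all 134078 tested introns, and the smallest adjusted p was 1. All 4 knockdown libraries lay above both control libraries in 16 of the 71 introns (22.5%, against 7.28% of all introns) and below both in 2 (2.82%, against 4.11%). The median log2 fold change of the E2F introns was 0.54, against 0.09 over all tested introns.

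**Figure D1:**
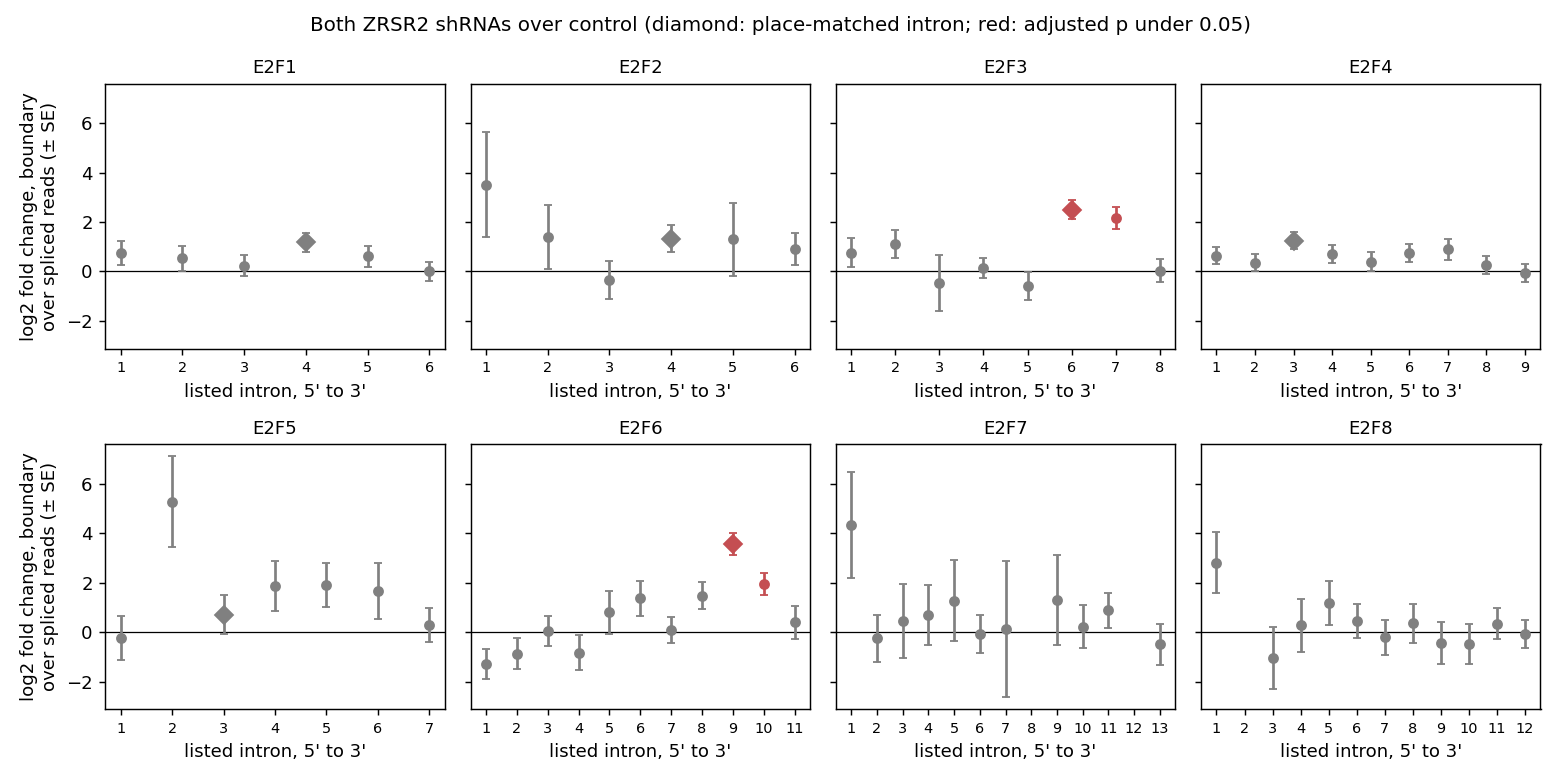
Log2 fold change of boundary over spliced reads, both ZRSR2 shRNAs over control, for 69 tested introns of the 8 E2F genes in order from the 5′ to the 3′ end (points, bars are the SE). Red marks an edgeR adjusted p under 0.05 and diamonds the intron that follows the exon of 153 to 162 nt in E2F1 to E2F6; 2 tested introns with an SE above 5 are not drawn. The 4 red points are introns 6 and 7 of E2F3 and introns 9 and 10 of E2F6.

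Among the activators, E2F3 held the called introns. Its intron 6 (chr6:20482921-20486688, GRCh38, plus strand, 3768 nt) had a retention of 34.9% and 19.0% in sh1 libraries and 24.9% and 19.0% in sh2 libraries, against 5.31% and 5.29% in control libraries. Every knockdown library stood at more than 3 times either control, and replicate 1 of each shRNA was the higher one. The log2 fold change was 2.49 ± 0.38 (SE; edgeR adjusted p = 1.01e-07), and without any 1 library the adjusted p stayed between 4.29e-09 and 0.00123. Each shRNA alone gave a call, with 2.67 for sh1 (edgeR adjusted p = 1.61e-06) and 2.31 for sh2 (edgeR adjusted p = 1.05e-04); the sh1 call was lost without sh1 replicate 1 (edgeR adjusted p = 0.0767) and the sh2 call without sh2 replicate 1 (edgeR adjusted p = 0.133). The next intron, E2F3 intron 7 (chr6:20486804-20488112), had 7.55% and 3.86% in sh1 libraries and 7.75% and 4.98% in sh2 libraries, against 1.07% and 1.68% in control libraries. It was lower throughout than intron 6 and the groups did not overlap. Its log2 fold change was 2.15 ± 0.45 (SE; edgeR adjusted p = 8.35e-04), and the adjusted p was 0.282 without control replicate 1. With the smaller of the 2 boundary counts doubled in place of their sum, neither E2F3 intron was called (edgeR adjusted p = 1 for each).

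The introns around this pair stayed low. E2F3 intron 5 (chr6:20481426-20482761) had 0.898% and 1.68% in sh1 libraries and 0.763% and 0.341% in sh2 libraries, against 1.48% and 1.09% in control libraries. E2F3 intron 8 (chr6:20488249-20490167) had 0.811% and 0.631% in sh1 libraries and 1.14% and 0.507% in sh2 libraries, against 1.05% and 0.508% in control libraries. The knockdown and control values overlapped in both, and neither was called (edgeR adjusted p = 1 for each).

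In E2F1 and E2F2, the other activators, the intron of largest increase was not called without the replicate block, although the groups did not overlap. With the block the E2F1 intron was called and the E2F2 intron was not. E2F1 intron 4 (chr20:33677541-33678200, minus strand) had a retention of 19.0% and 13.0% in sh1 libraries and 15.4% and 12.4% in sh2 libraries, against 5.70% and 8.85% in control libraries, with a log2 fold change of 1.17 ± 0.39 (SE) and an edgeR adjusted p of 0.405, which was 0.0297 with the experiment number as a block. Its neighbours were E2F1 intron 3 (2.16% to 4.12% in knockdown libraries, 2.41% and 3.06% in control libraries) and intron 5 (3.82% to 6.01% in knockdown libraries, 2.45% and 4.30% in control libraries), and both overlapped. E2F2 intron 4 (chr1:23519131-23520912, minus strand) had 22.7% and 10.2% in sh1 libraries and 10.6% and 12.4% in sh2 libraries, against 5.16% and 6.36% in control libraries, with a log2 fold change of 1.33 ± 0.55 (SE) and an edgeR adjusted p of 0.869. E2F2 is read more thinly, with a mean of 257 boundary and spliced reads per library at this intron against 781 at E2F1 intron 4. E2F2 intron 3 had 1.44% to 3.18% in knockdown libraries and 1.81% and 3.40% in control libraries, and E2F2 intron 5 stayed under 1% in all 6 libraries.

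The repressor gene E2F4 had no called intron without the replicate block and 1 with it, and its smallest p lay at intron 3 (chr16:67193171-67193471, plus strand, 301 nt). Retention was 20.6% and 8.60% in sh1 libraries and 11.6% and 9.52% in sh2 libraries, against 6.15% and 4.75% in control libraries. The groups did not overlap, and sh1 replicate 1 stood highest. The log2 fold change was 1.25 ± 0.34 (SE; edgeR adjusted p = 0.0653). With the experiment number as a block the edgeR adjusted p was 2.36e-04 with both shRNAs and 1.77e-04 with sh1, and intron 3 was called. Over the fits of the unblocked test without 1 library the adjusted p ran between 0.00298 (without sh1 replicate 2) and 1. E2F4 intron 2 (chr16:67192871-67193008) was retained in every library, with 22.0% and 17.7% in sh1 libraries and 22.6% and 17.1% in sh2 libraries, against 17.0% and 15.4% in control libraries, and was not called (edgeR adjusted p = 1). E2F4 intron 4 (chr16:67193516-67194397) overlapped, with 3.73% to 7.08% in knockdown libraries and 3.76% and 2.63% in control libraries.

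E2F5, the other pocket-protein-bound repressor, had no called intron. Its smallest p lay at intron 2 (chr8:85202257-85203093), with 1.22% and 1.04% in sh1 libraries and 3.23% and 0.364% in sh2 libraries, against 0 boundary reads in both control libraries, which allows up to 1.8% and 0.585% with 3 boundary reads in each. The edgeR adjusted p was 0.493. Intron 1 of E2F5 had 0.813% to 2.04% in knockdown libraries and 2.96% and 0.858% in control libraries. E2F5 intron 3 (chr8:85203256-85206176) had 9.88% and 2.08% in sh1 libraries and 2.88% and 1.62% in sh2 libraries, against 4.12% and 0.963% in control libraries, so that replicate 1 was the higher library in every group and the groups overlapped.

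E2F6, the Polycomb-linked repressor, held the largest log2 fold change among the called E2F introns. Its intron 9 (chr2:11450127-11451650, minus strand, 1524 nt) had a retention of 38.0% and 15.1% in sh1 libraries and 17.8% and 8.46% in sh2 libraries, against 2.26% and 1.42% in control libraries. In reads, sh1 replicate 1 held 620 at the boundaries beside 505 spliced, and control replicate 1 held 30 at the boundaries beside 648 spliced. The log2 fold change was 3.56 ± 0.43 (SE; edgeR adjusted p = 5.85e-13), and without any 1 library the adjusted p was at most 2.56e-05. It was 4.17 for sh1 (edgeR adjusted p = 1.56e-13) and 2.95 for sh2 (edgeR adjusted p = 2.25e-06), and the sh2 call was lost without sh2 replicate 1 (edgeR adjusted p = 0.108).

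The following intron of E2F6, intron 10 (chr2:11447775-11450011), had 8.79% and 4.62% in sh1 libraries and 10.6% and 7.26% in sh2 libraries, against 2.34% and 1.78% in control libraries. The groups did not overlap, and here replicate 1 of sh2 stood highest. The log2 fold change was 1.96 ± 0.44 (SE; edgeR adjusted p = 0.00344); sh2 alone gave a call (edgeR adjusted p = 0.005) and sh1 alone did not (edgeR adjusted p = 0.164; 0.00788 with the replicate block). The call over both shRNAs was lost without sh1 replicate 1 (0.103), sh2 replicate 1 (0.0811), control replicate 1 (0.0917) or control replicate 2 (0.444), each an edgeR adjusted p, and with the smaller boundary count doubled (1) or a covered fraction of at least 0.95 (0.059). E2F6 intron 8 (chr2:11451807-11453581), just before the pair, had 1.31% and 0.592% in sh1 libraries and 2.76% and 0.481% in sh2 libraries, against 0.573% and 0.282% in control libraries, and intron 11, just after it, stayed under 1% in all 6 libraries. Neither was called (edgeR adjusted p = 0.638 and 1). E2F6 introns 1 and 2, which share the first exon, were the 2 E2F introns with every knockdown library below both controls, at 0.17% to 0.376% in knockdown against 0.937% and 0.485% in control libraries for intron 1, and 0.201% to 0.404% in knockdown against 0.794% and 0.452% in control libraries for intron 2. These rest on 3 to 6 boundary reads per knockdown library in each intron. Control libraries held 13 and 8 at intron 1 and 10 and 7 at intron 2. The 5′ boundary reads of both introns are the same reads, and neither intron was called.

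The atypical repressors E2F7 and E2F8 had no called intron. The smallest p in E2F7 lay at intron 1 (chr12:77064636-77065344, minus strand), with 2.33% and 4.24% in sh1 libraries and 1.06% and 0% in sh2 libraries, against 0% in both control libraries, where 0 boundary reads allow up to 1.73% in sh2 replicate 2 and up to 1.6% and 1.84% in the control libraries. Intron 2 of E2F7 overlapped, with 1.62% to 2.15% in knockdown libraries and 0.917% and 3.91% in control libraries. In E2F8 it lay at intron 1 (chr11:19240231-19241406, minus strand), with 7.69% and 2.22% in sh1 libraries and 6.25% and 4.44% in sh2 libraries, against 1.43% and 0% in control libraries (0 boundary reads in control replicate 2 allow up to 1.91%), and an edgeR adjusted p of 0.96. Intron 2 of E2F8, which starts at a nearer first exon, had 2 boundary reads in sh1 replicate 2 and 0 in the other 5 libraries. These genes are thinly read, with means of 70 to 225 reads per library at the tested E2F8 introns and 91 to 128 at the tested E2F7 introns.

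The introns with the largest increase held the same place in 5 genes. In E2F1 to E2F6 one intron follows an exon of 153 nt (E2F1), 159 nt (E2F2 and E2F3), 162 nt (E2F4 and E2F5) or 156 nt (E2F6), measured between listed introns. That exon itself follows an exon of 220 nt in E2F1, E2F2 and E2F3, 110 nt in E2F4 and E2F5 and 217 nt in E2F6. The exon after the intron has 115 nt in E2F1, E2F2, E2F3 and E2F6, 44 nt in E2F4 and 48 nt in E2F5. This intron, intron 4 of E2F1 and E2F2, intron 6 of E2F3, intron 3 of E2F4 and E2F5 and intron 9 of E2F6, had the largest difference in retention percentage of its gene in E2F1, E2F2, E2F3, E2F4 and E2F6, and ranked 3 of 7 in E2F5. The match was drawn up after the retention values had been seen, and no test was made of it. Exons of 153 to 162 nt also precede introns of E2F7 and E2F8, but there they follow an exon of 291 nt in E2F7 and 279 or 315 nt in E2F8. These introns are not part of the match, and none of them was called. After an exon of 159 nt, E2F7 intron 6 had a retention of 2.53% to 9.72% in knockdown libraries and 3.96% and 10.1% in control libraries. After an exon of 157 nt, E2F8 intron 5 had 3.33% to 5.53% in knockdown libraries and 1.62% and 1.85% in control libraries, and after an exon of 162 nt, E2F8 intron 7 had 3.61% to 4.87% in knockdown libraries and 0.926% and 9.30% in control libraries. The groups overlapped in E2F7 intron 6 and E2F8 intron 7 and did not overlap in E2F8 intron 5. The length of the matched intron ranged from 301 nt in E2F4 to 3768 nt in E2F3.

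**Figure D2:**
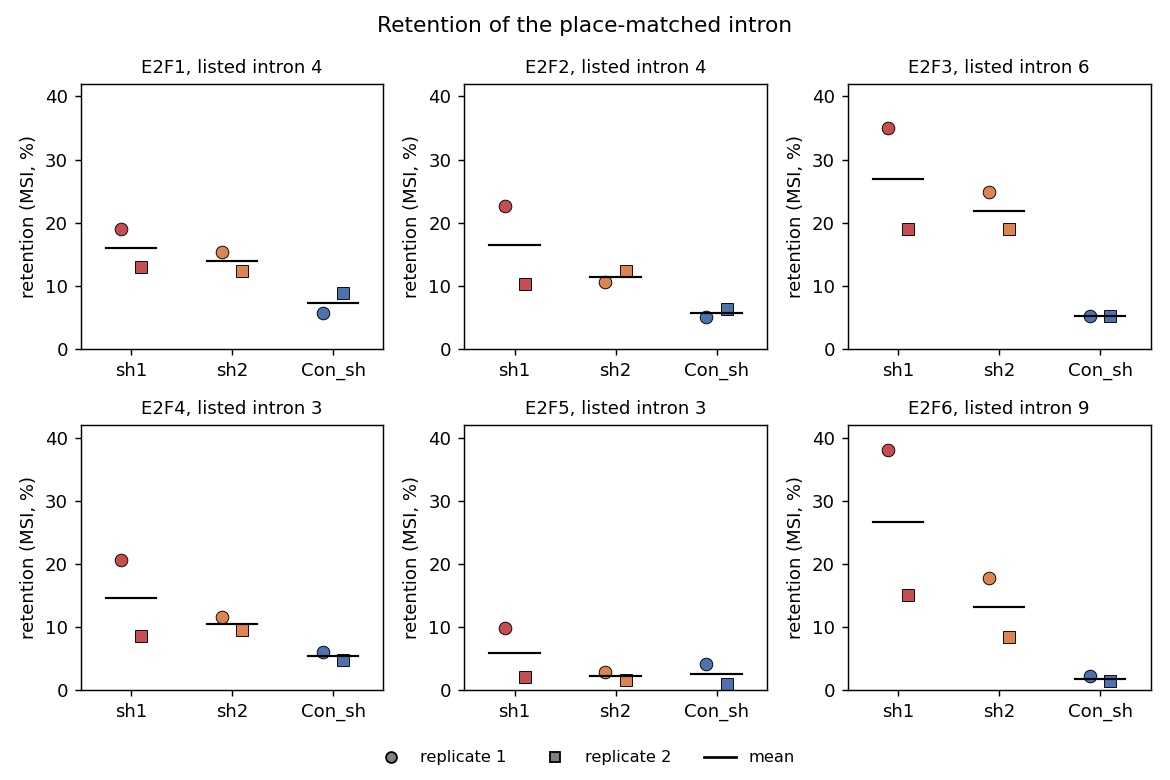
Retention (MSI, percent) of the intron that follows the 153 to 162 nt exon in E2F1 to E2F6, by library (circles are replicate 1, squares replicate 2, lines the mean of 2). In E2F1, E2F2, E2F3, E2F4 and E2F6 all 4 knockdown libraries lie above both control libraries, with the highest at 38.0% in E2F6, and in E2F5 the groups overlap.

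Both boundaries of the place-matched intron held a larger share of reads in every knockdown library than in either control library in E2F1, E2F3, E2F4 and E2F6. The match followed a look at retention, which is made from these same reads, so these shares are not a separate result. How many of all introns do so was not counted. Reads over the 5′ boundary made up 39.0% and 23.7% of 5′ boundary and spliced reads in sh1 libraries and 34.7% and 27.2% in sh2 libraries for E2F3, against 5.69% and 5.93% in control libraries. Over its 3′ boundary the shares were 30.2% and 13.7% in sh1 libraries and 11.5% and 8.70% in sh2 libraries, against 4.93% and 4.64% in control libraries, so the 5′ side was the higher one in every library. In E2F6 the sides were closer, with 8.03% to 38.9% at the 5′ side and 8.89% to 37.2% at the 3′ side in knockdown libraries, against 2.26% and 1.35% at the 5′ side and 2.26% and 1.49% at the 3′ side in control libraries. E2F1 had the higher share at the 3′ side in every library, 14.5% to 24.3% there and 7.96% to 12.9% at the 5′ side in knockdown libraries, against 7.50% and 10.7% at the 3′ side and 3.82% and 6.94% at the 5′ side in control libraries. In E2F2 the 5′ side separated the groups, at 13.5% to 31.2% in knockdown libraries and 5.16% and 6.18% in control libraries, and the 3′ side did not, at 6.41% to 11.7% in knockdown libraries and 5.16% and 6.54% in control libraries. E2F4 had 11.2% to 25.9% at the 5′ side and 5.81% to 14.6% at the 3′ side in knockdown libraries, against 8.04% and 7.04% at the 5′ side and 4.17% and 2.34% at the 3′ side in control libraries. E2F5 overlapped at both sides, with 0.840% to 8.75% at the 5′ side and 1.30% to 10.98% at the 3′ side in knockdown libraries, against 2.11% and 0% at the 5′ side and 6.06% and 1.91% at the 3′ side in control libraries.

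Fewer spliced reads crossed the place-matched intron of E2F6 relative to its neighbours. Its spliced reads came to 57.5% and 73.2% of the mean of both flanking introns in sh1 libraries and 81.2% and 82.9% in sh2 libraries, against 96.4% and 97.8% in control libraries. For E2F3 the ratio was 95.9% and 108% in sh1 libraries and 102% and 98.7% in sh2 libraries, against 134% and 122% in control libraries. For E2F4 it was 120% to 129% in knockdown libraries, against 134% and 132% in control libraries, and for E2F5 95.9% to 105% in knockdown libraries, against 111% and 106% in control libraries. These 4 genes had every knockdown library below both controls, as did 6.23% of 91401 introns measured the same way over all genes. The introns were matched after retention had been seen, and retention holds the same spliced reads. The count of E2F genes and that share are therefore not comparable. In E2F1 and E2F2 the groups overlapped, at 86.5% to 96.6% in knockdown against 105% and 95.5% in control libraries for E2F1, and 94.0% to 108% in knockdown against 93.9% and 109% in control libraries for E2F2.

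**Figure D3:**
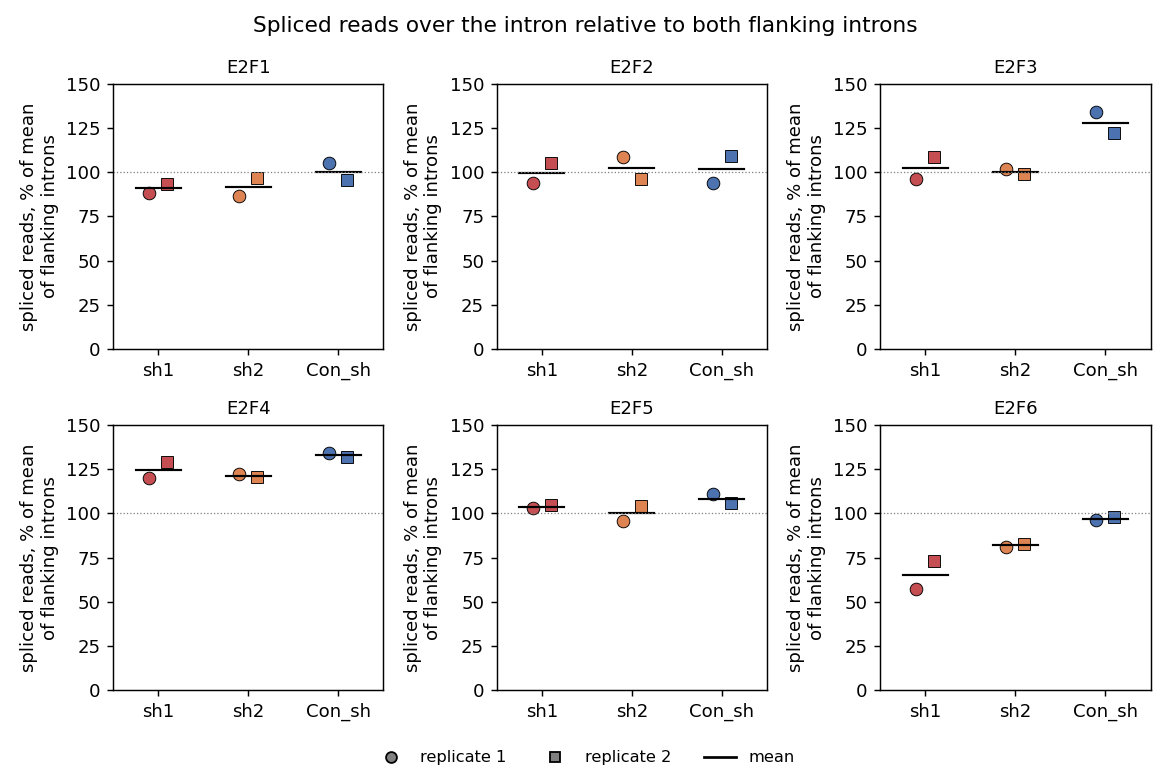
Spliced reads over the place-matched intron as a percent of the mean of both flanking introns, by library (circles are replicate 1, squares replicate 2, lines the mean of 2, the dotted line 100%). E2F6 stands at 57.5% to 82.9% in knockdown libraries, below 96.4% and 97.8% in control libraries; the groups overlap in E2F1 and E2F2.

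As a level per gene, the spliced reads of non-overlapping introns were summed and no E2F gene passed the test. Of 17520 genes tested, edgeR called 0% in this contrast, with 1446 at an unadjusted p under 0.05, and DESeq2 called 1.32% of those it tested; of the 8 E2F genes 0 were called by either tool, and 1 had an unadjusted edgeR p under 0.05. Per summed intron, E2F4 had the highest level in control libraries at 21.9 ± 0.158 CPM, followed by E2F6 at 8.01 ± 0.0371, E2F3 at 6.67 ± 0.0296 and E2F1 at 6.42 ± 0.390 CPM (SD, n = 2 each). E2F5 (1.98 ± 0.95 CPM), E2F2 (1.96 ± 0.423 CPM), E2F8 (1.57 ± 0.0274 CPM) and E2F7 (1.22 ± 0.208 CPM) were lower (SD, n = 2 each). E2F3 and E2F1 overlapped, as did E2F5 with E2F2, with E2F8 and with E2F7. In bulk RNA, fewer cells with a transcript and less of it per cell cannot be told apart.

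E2F4, the most highly read member, was lower in every knockdown library. Its summed spliced reads were 141 and 155 CPM in sh1 libraries and 133 and 147 CPM in sh2 libraries, against 198 and 196 CPM in control libraries. All 9 of its listed introns had a lower CPM of spliced reads in each knockdown library than in either control library, for example 16.6 to 21.6 CPM in knockdown against 28.7 and 28.1 CPM in control libraries at intron 3, and 16.7 to 18.7 CPM in knockdown against 22.4 and 21.5 CPM in control libraries at the last intron. The sum is made of these introns, so they are not separate measurements. The share of all introns that do so was not counted. The log2 fold change of the sum was -0.45 ± 0.12 (SE; edgeR adjusted p = 0.572), with a DESeq2 adjusted p of 0.0728. Between each shRNA and control it was -0.41 for sh1 and -0.49 for sh2.

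E2F3, E2F6 and E2F8 had all knockdown libraries above both controls, and none passed the test. All 4 knockdown libraries lay above both controls in 10% of all tested genes and below both in 9.55%, and among the E2F genes in 3 and 1 of 8. E2F3 had 47.8 and 41.0 CPM in sh1 libraries and 51.2 and 47.6 CPM in sh2 libraries, against 39.9 and 40.1 CPM in control libraries (log2 fold change 0.23 ± 0.14, SE). E2F6 had 83.4 and 66.4 CPM in sh1 libraries and 73.8 and 66.4 CPM in sh2 libraries, against 63.9 and 64.3 CPM in control libraries (0.18 ± 0.15, SE). Spliced reads of 5 of its 11 introns were above both controls in every knockdown library, and those of intron 9 were below. These introns are part of the gene sum and are not separate measurements, and the share of all introns that do so was not counted. E2F8 had 20.7 and 20.4 CPM in sh1 libraries and 19.7 and 18.3 CPM in sh2 libraries, against 17.1 and 17.5 CPM in control libraries (0.19 ± 0.15, SE).

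The other 4 genes overlapped between the groups. E2F1 had 48.9 and 39.9 CPM in sh1 libraries and 31.4 and 30.9 CPM in sh2 libraries, against 40.2 and 36.9 CPM in control libraries, so both sh2 libraries lay below the controls and the sh1 libraries did not; sh1 over sh2 gave a log2 fold change of 0.51 ± 0.17 (SE; edgeR adjusted p = 0.909). E2F2 had 15.4 and 14.9 CPM in sh1 libraries and 9.66 and 13.6 CPM in sh2 libraries, against 9.94 and 13.5 CPM in control libraries. E2F5 had 6.11 and 13.0 CPM in sh1 libraries and 10.1 and 13.4 CPM in sh2 libraries, against 9.13 and 18.5 CPM in control libraries, with replicate 2 the higher library in each group. E2F7 had 15.4 and 12.7 CPM in sh1 libraries and 13.8 and 15.2 CPM in sh2 libraries, against 16.4 and 12.9 CPM in control libraries.

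**Figure D4:**
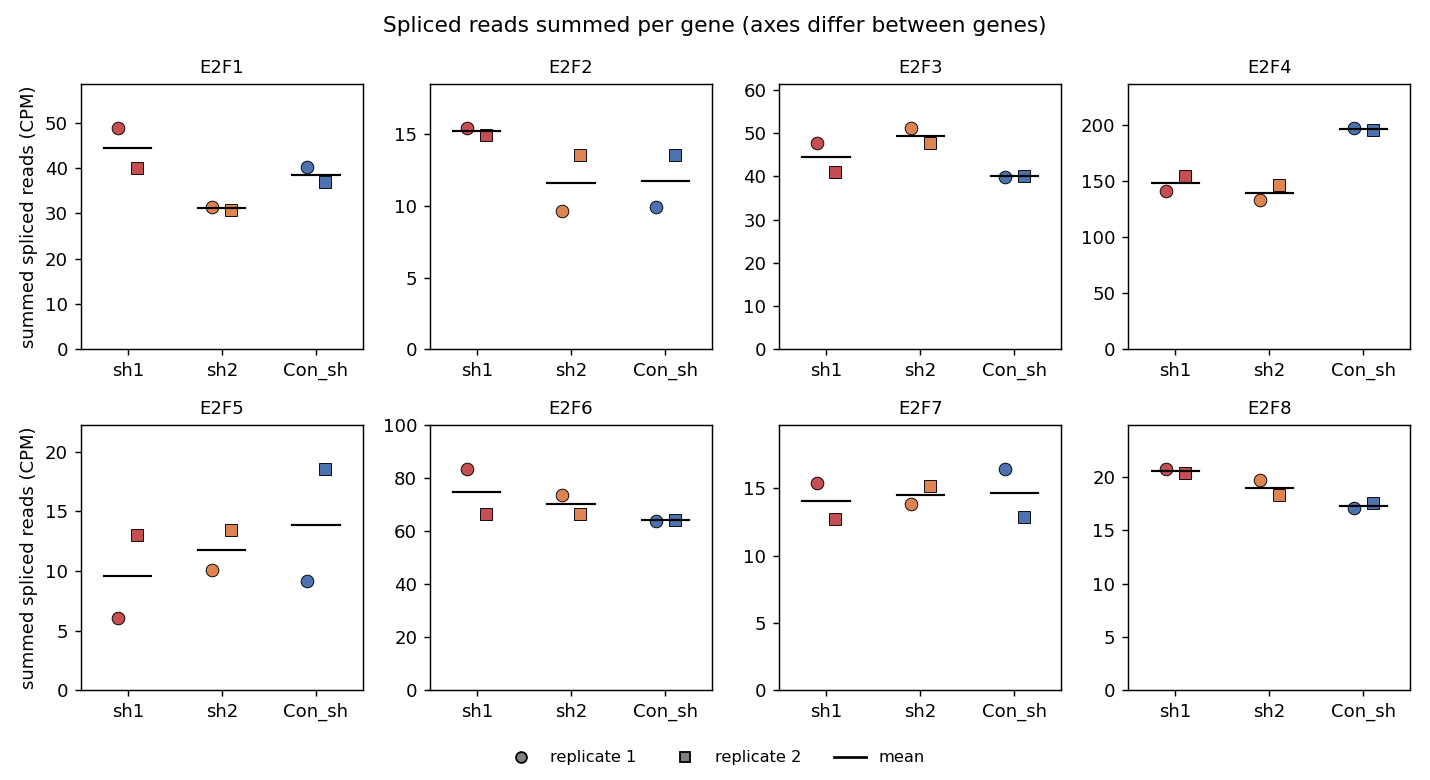
Spliced reads summed per E2F gene in CPM, by library (circles are replicate 1, squares replicate 2, lines the mean of 2; each axis starts at 0 and the axes differ between genes). E2F4 is lower in all 4 knockdown libraries (133 to 155 CPM) than in both control libraries (198 and 196 CPM), and no gene passed the edgeR test.

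E2F3 is read from its upstream and downstream promoters, whose first exons join the same exon. The upstream first exon, E2F3a, gave 34.4% and 35.0% of first-intron reads in sh1 libraries and 26.1% and 37.5% in sh2 libraries, against 37.9% and 41.9% in control libraries. The 95% exact binomial intervals, which cover counting error only, ran from 32.8% to 42.4% in sh2 replicate 2 and from 33.0% to 43.1% in control replicate 1, so these neighbouring values did not differ beyond counting error, whereas sh2 replicate 1 (22.3% to 30.3%) lay below both control intervals. Reads from E2F3a came to 1.80 ± 0.320 CPM with sh1 and 1.78 ± 0.246 CPM with sh2, against 1.90 ± 0.195 CPM in control libraries, and overlapped. Reads from E2F3b came to 3.40 ± 0.666 CPM with sh1 and 3.91 ± 0.911 CPM with sh2, against 2.86 ± 0.0383 CPM in control libraries (SD, n = 2 each). Every knockdown library lay above both controls, but narrowly: the lowest had 2.93 CPM and the higher control 2.89 CPM. How many first exons of all genes do so was not counted, and no test was made.

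**Figure D5:**
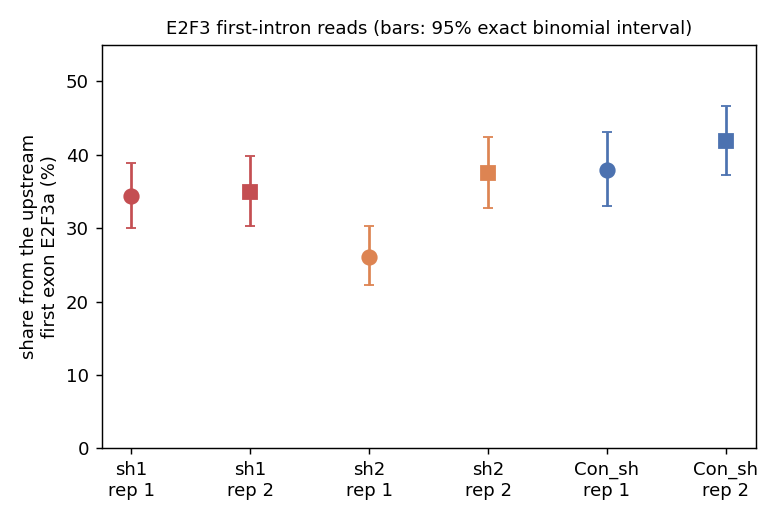
Share of E2F3 first-intron reads that come from the upstream first exon E2F3a, in percent, by library (bars are 95% exact binomial intervals, counting error only). The shares run from 26.1% to 37.5% in knockdown libraries and are 37.9% and 41.9% in control libraries; the interval of sh2 replicate 1 (22.3% to 30.3%) lies below both control intervals and those of the other 3 knockdown libraries overlap them.

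Alternative joins at the start of E2F6 and E2F8 overlapped between the groups. The E2F6 first exon was joined to the exon of 217 nt, past the listed exons of 71, 55 and 133 nt, in part of its reads. This share was 48.9% and 47.9% in sh1 libraries and 43.9% and 47.2% in sh2 libraries, against 42.9% and 46.3% in control libraries. The upstream first exon of E2F8 gave 34.0% and 46.8% of reads into the shared exon in sh1 libraries and 56.6% and 39.8% in sh2 libraries, against 60% and 53.5% in control libraries.

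Partners and targets of the E2F proteins were read from lists drawn up for the purpose, and edgeR called 0 of their genes in summed spliced reads, as did DESeq2. Of the dimer partners TFDP1 and TFDP2 were tested and TFDP3 had no sum. TFDP2 had 75.7 and 81.6 CPM in sh1 libraries and 73.9 and 79.4 CPM in sh2 libraries, against 34.9 and 69.3 CPM in control libraries (edgeR adjusted p = 0.607), and TFDP1 overlapped between groups. RB1, the pocket protein that restrains the activators, had 95.8 and 99.9 CPM in sh1 libraries and 93.3 and 100.7 CPM in sh2 libraries, against 73.8 and 76.8 CPM in control libraries. Its log2 fold change was 0.37 ± 0.12 (SE; edgeR adjusted p = 0.572); that of RBL2 was 0.31 ± 0.22 (SE), with overlapping groups.

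In the E2F6 repressor complex 10 of 10 genes were tested, with a median log2 fold change of 0.00 and 5 genes on either side of it, against a median of -0.01 over all genes; 0 had an unadjusted edgeR p under 0.05 with both shRNAs, and the 2 smallest p were those of RYBP (0.43 ± 0.20, SE) and L3MBTL2 (-0.21 ± 0.15, SE). DREAM is a complex that holds cell cycle genes silent in resting cells. The list drawn up around its core held LIN9, LIN37, LIN52, LIN54, RBBP4 and MYBL2, and 6 of 6 were tested. LIN54 had the smallest p (0.41 ± 0.16, SE, edgeR adjusted p = 0.572), followed by LIN9 (0.13 ± 0.13, SE). Of 32 G1/S targets, 11 had a positive and 21 a negative log2 fold change with a median of -0.04, and 1 had an unadjusted edgeR p under 0.05. This was CCNE1, which encodes cyclin E1, at 32.6 and 31.1 CPM in sh1 libraries and 33.7 and 32.0 CPM in sh2 libraries, against 46.3 and 39.8 CPM in control libraries (log2 fold change -0.41 ± 0.14, SE; edgeR adjusted p = 0.572). The next smallest p was that of FEN1, a flap endonuclease of DNA replication (-0.32 ± 0.15, SE). Of 4 germline genes known as E2F6 targets, 2 were tested: STAG3 had 10.6 to 15.7 CPM in knockdown and 15.8 CPM in both control libraries, and SMC1B stayed under 2 CPM in all 6.

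Of 443 tested introns in the 32 G1/S target genes 1 was called more retained (0.226%, against 0.33% of all tested introns), and of the 264 tested introns in the other partner and target lists 0 were. Neither share was above that of all tested introns. With the replicate block, 2 list genes had a called intron in place of 1. The intron called without it lies in POLA2, which encodes the accessory subunit of DNA polymerase alpha. It lies at chr11:65267569-65268671 and had a retention of 13.8% and 4.32% in sh1 libraries and 6.61% and 3.14% in sh2 libraries, against 0.259% and 0.866% in control libraries. All knockdown libraries lay above both controls, with a log2 fold change of 3.39 ± 0.55 (SE) and an edgeR adjusted p of 4.77e-07. The call was lost with the smaller boundary count doubled, and a covered fraction of at least 0.95 left this intron out of the test. The summed spliced reads of POLA2 overlapped, at 86.1 to 108.8 CPM in knockdown libraries and 75.9 and 100.6 CPM in control libraries.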

How the data were processed

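RNA-seq of 6 K562 libraries was analysed from 1 deposited table per library. Per the file headers, the authors deposited raw counts of reads at both intron boundaries and of spliced reads, a covered fraction of intron bases, and a percent named MSI, called retention here. Which aligner, counter and intron annotation were used is not given in the sources used here. Although the submitters' processing notes give hg19 as the build, 95.6% of introns lay inside RefSeq genes of GRCh38, against 62.6% and 62.9% after a shift by 100 kb either way. Gene names were therefore taken from GRCh38, and starts are counted from 1. The strand of E2F5 and E2F8 was taken from most introns inside them. A spliced read counts for every intron that its gap spans, so inner introns hold the reads of outer ones. The intron counted as E2F3 intron 3 lies inside the first introns of E2F3.

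Introns with a mean of at least 20 reads were tested with edgeR 4.0.16 (R 4.3.3), in a quasi-likelihood fit of boundary and spliced counts that has a term for each library and tests the read type by group. Gene sums of non-overlapping introns were tested with edgeR (TMM) and with DESeq2 1.42.0, and 4520 introns whose counts repeat those of a neighbouring gene stayed out of the sums (0 in the E2F genes). All 3 groups shared 1 fit, p-values were adjusted by Benjamini-Hochberg over all features, and CPM is summed reads of a gene per 1000000. The test was also run on simulated counts with the same spread for all features and no effect of the experiment number. These settings differ from the data, so nothing is concluded from that run. E2F members, lists and tests were chosen with earlier results of these data known. Genes named are all E2F members with every called intron, the intron of smallest p where none was called and its neighbours, and in each list the genes that passed or else the 2 of smallest p. Boundary and spliced counts give the depth behind each retention value. The titles give libraries of the 3 groups the same 2 experiment numbers, and what a number shares is not stated. Deviations of same-numbered libraries from their group means correlated at 0.29, 0.19 and 0.18 for gene sums and at 0.10, 0.05 and 0.11 for retention, so calls that the replicate block changes are given with and without it. Alternatives were the replicate block, other read minimums, the smaller boundary count doubled, DESeq2 size factors, a covered fraction of at least 0.95, and leaving out each library.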

Additional observations from a re-analysis of the deposited data

How the results depend on the processing

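The number of E2F introns called more retained was 4 with both shRNAs, 3 with sh1 and 4 with sh2. With the smaller boundary count doubled in place of both boundaries it was 1, 1 and 0, and with a covered fraction of at least 0.95 the sh2 count was 0. Leaving out 1 library gave 2 to 5 with both shRNAs (2 without control replicate 1), 1 to 5 with sh1 (1 without sh1 replicate 1, 5 without sh1 replicate 2) and 0 to 5 with sh2 (0 without sh2 replicate 1, 2 without either control library). E2F6 intron 9 kept its call under every alternative with both shRNAs; its adjusted p was 0.0393 with the smaller boundary doubled. E2F3 intron 6 lost it only there, among the alternatives run (log2 fold change 1.77, adjusted p = 1). The number of partner and target genes with a changed intron was 1, 0 with the smaller boundary doubled or the covered fraction, and 1 to 3 over the fits without 1 library (2 without sh1 replicate 2 or control replicate 1, 3 without sh2 replicate 2). Directions turned only in values that were not called: E2F5 intron 3 (log2 fold change from -0.36, without control replicate 2, to 1.77) and the summed reads of E2F1, E2F2, E2F5 and E2F7. Over the fits without 1 library, the log2 fold change of the summed reads ran from -0.13 to 0.021 for E2F1 (0.018 without sh1 replicate 2, 0.021 without control replicate 1), from -0.017 (without control replicate 1) to 0.43 for E2F2, from -0.79 to 0.23 (without control replicate 2) for E2F5, and from -0.19 to 0.15 for E2F7 (0.024 without sh1 replicate 2, 0.15 without control replicate 1). The cause was not tested. Counts of called sums stayed at 0. A library alone in its group is assumed to vary like the others.

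With the replicate block, E2F introns called were 6 with both shRNAs and 5 with sh1, E2F1 intron 4 (adjusted p = 0.0297) and E2F4 intron 3 (adjusted p = 2.36e-04) being added with both, and partner and target genes with a changed intron were 2. The share of all introns called with the block is not given here, so these rises cannot be told from a general rise in calls. The block changed no other count of calls named here.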
